A study of Mus musculus with 34 samples.

Results

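The corneas compared here are those of wild-type CB6 mice at P14 (postnatal day 14, 3 arrays) and at E15.5 (embryonic day 15.5, 3 arrays), 6 of the 34 arrays of a study of the mouse cornea over life. They were chosen by the age in the labels alone, and all 12998 genes tested are described. Each array holds the RNA of whole cornea, dissected from the globe with the tissue around it removed, so epithelium, stroma and endothelium were measured together. No treatment or mutation sets the ages apart, and both groups share the strain. In such bulk RNA, fewer cells of a type and less RNA per cell cannot be told apart. Nothing in the labels ties the arrays of an age to different mice. The p-values therefore cover only the spread among RNA samples of an age, which may be technical. That spread was estimated over all 32 whole-cornea arrays of 12 ages, not over the 6 compared arrays alone. With 3 arrays for each compared age the precision is limited.

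In the mouse embryo the cornea forms from surface ectoderm, which gives the epithelium, and from neural crest cells of the periocular mesenchyme, which give the keratocytes of the stroma and the endothelium. The lids grow over the eye and fuse before birth, and they open again about the end of the second week after birth, so that the epithelium matures behind closed lids and then meets air, light and tears. The labels do not give the lid state of any animal, and the comparison is one of ages. A mature corneal epithelium is known for its keratins, its coat of membrane mucins and its store of enzymes such as aldehyde dehydrogenases, and a mature stroma for ordered collagen fibrils with keratan sulfate proteoglycans.

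The cornea's defining markers were measured at both ages. Krt12, the keratin of corneal epithelium, read 10706, 8749.7 and 9120.4 at P14, against 5329, 8500.2 and 8654 at E15.5 (deposited intensity, linear scale), and its log2 difference of P14 minus E15.5 was 0.37 (limma, Benjamini-Hochberg adjusted p = 0.180). Kera, the keratan sulfate proteoglycan keratocan of keratocytes, read 9089, 5428 and 7158 at P14, against 7151, 6788 and 7526 at E15.5, and its log2 difference was -0.02 (adjusted p = 0.991). The groups overlapped for Kera, while the lowest P14 array lay just above the highest E15.5 array for Krt12. Pax6, the eye regulator, gave a log2 difference of 0.24 and the endothelial collagen gene Col8a2 one of 0.05, and neither passed the test (adjusted p = 0.575 and 0.900).

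Some arrays carried RNA of tissues beside the cornea. The summed intensity of 18 lens genes was 4845, 71105 and 8694 on P14 replicates 1 to 3, against 3836, 4105 and 4432 on E15.5 replicates 1 to 3. P14 replicate 2 thus stood apart, and P14 replicate 3 lay above the other 4 arrays. For 11 retina genes the sums were 1391, 6508 and 3304 at P14, against 1417, 1348 and 1279 at E15.5. For 10 skeletal muscle genes they were 2048, 2826 and 2661 at P14, against 18709, 2470 and 2851 at E15.5, so E15.5 replicate 1 was the one rich in muscle. E15.5 replicate 1 also read lowest for the epithelial desmosome genes, whose 12 members summed to 26888, 21333 and 24055 at P14, against 12645, 22355 and 23742 at E15.5. Xist, which marks the inactive X chromosome, read 24.9, 85.3 and 383 at P14, against 30.9, 332 and 6082 at E15.5, and the Y-linked Eif2s3y read 1404, 1292 and 1227 at P14, against 1149, 1273 and 3.04 at E15.5, so E15.5 replicate 3 differed from the other arrays in both. Correlations of log2 values across genes were 0.928 to 0.971 within P14, 0.943 to 0.969 within E15.5 and 0.848 to 0.885 between the ages.

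Between P14 and E15.5, 674 of 12998 genes changed, which is 5.19% of those tested. A gene was called by limma at a Benjamini-Hochberg adjusted p under 0.05 with a difference of at least 1 on the log2(intensity + 16) scale, a scale that understates the change of dim genes. Of the called genes, 417 rose, or 3.21% of all genes, and 257 fell, or 1.98%. The rises were also the larger: 120 genes rose at least 4-fold and 35 fell as far, and at 8-fold the counts were 37 and 3. The direction of the split rested on the fold threshold, since by adjusted p alone 2454 genes differed, 969 higher and 1485 lower. The median difference over all genes was -0.03. For 663 of the 674 called genes the 3 arrays of one age lay wholly above those of the other, a pattern shown by 34.0% of all genes tested. Where a lack of overlap is given for called genes below, it describes them and adds no evidence to the call. At the array's median level, 148 called genes were above it on every P14 array and on no E15.5 array, and 42 the other way. Without P14 replicate 2, 596 of the 674 genes (88.4%) were called again. With P14 replicates 2 and 3 both left out, a setting chosen after the data were seen, 408 genes rose and 174 fell, and 444 of the 674 were among them. With P14 replicate 2 and E15.5 replicate 1 left out, also chosen after the data were seen, 419 rose and 230 fell. Losses of single genes given below are for 1 array left out unless stated. Further losses under these settings are given in the last section.

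**Figure D1:**
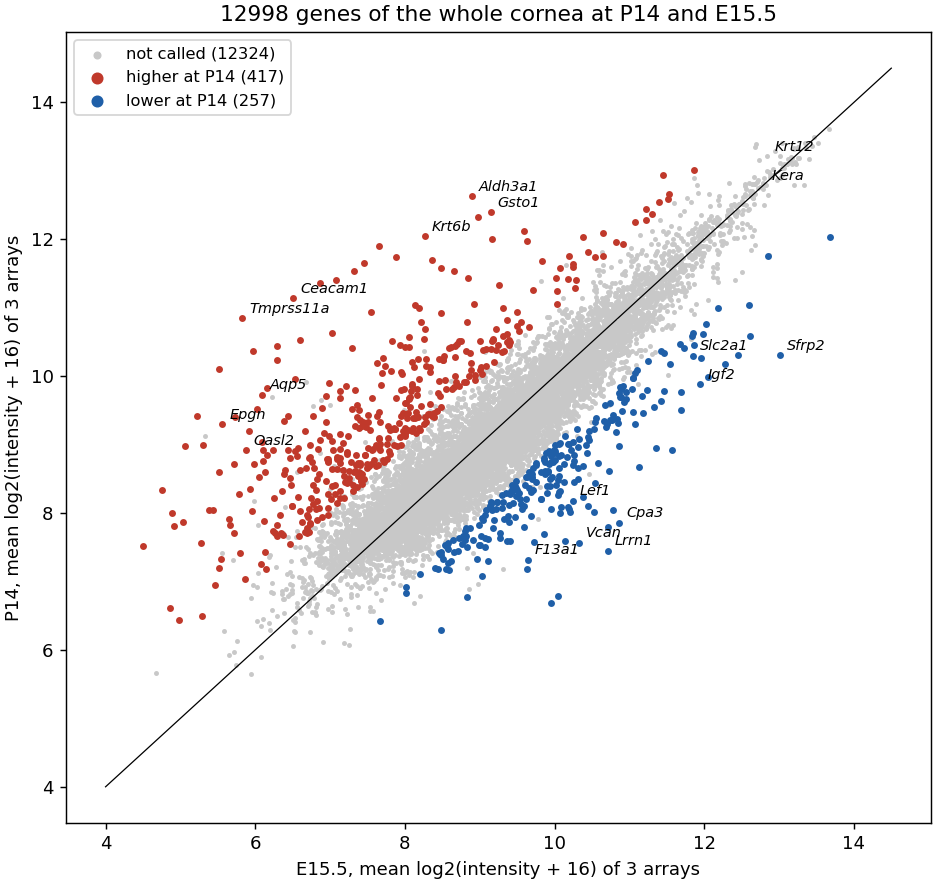
Mean log2(intensity + 16) of the 3 P14 arrays (vertical axis) against that of the 3 E15.5 arrays (horizontal axis) for each of 12998 genes. Red points are the 417 genes called higher at P14, blue points the 257 called lower, grey points the rest, and the line marks equal levels. Krt12 and Kera lie near the line at the upper end, and the red points reach farther from it than the blue ones.

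The 15 largest rises and 15 largest falls named as such were taken among called genes whose ages did not overlap and that were called without P14 replicate 2, so neither property is a result for them. Tmprss11a, a membrane-bound serine protease of squamous epithelia, read 1702, 1571 and 2283 at P14, against 119, 24.9 and 17.3 at E15.5. Its difference was 5.02 on the log2 scale (SE 0.51, adjusted p = 2.2e-07), the largest among them. Ceacam1, an adhesion molecule of epithelia, read 2722, 1961 and 2087 at P14, against 84.2, 77.4 and 63.4 at E15.5, and its log2 difference was 4.63 (SE 0.32, adjusted p = 3.8e-10). For both genes every P14 array lay more than 10 times above every E15.5 array. Krt6b, a keratin of activated and stratified epithelia whose sequence is close to that of Krt6a, read 4878, 3742 and 4111 at P14, against 187, 360.4 and 362 at E15.5, a log2 difference of 3.79 (SE 0.23, adjusted p = 6.5e-11). Krt6a itself gave 0.65 (adjusted p = 0.105), and how far the probes separate the pair was not tested.

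Enpp3, a membrane enzyme that splits extracellular nucleotides, read 3262, 2378 and 2530.5 at P14, against 116, 134 and 109 at E15.5 (log2 difference 4.33, adjusted p = 8.8e-08). Acsm1, an acyl-CoA synthetase for medium-chain fatty acids, read 661, 629.8 and 712 at P14, against 29.1, 16.1 and 20.3 at E15.5 (log2 difference 4.19, adjusted p = 3.5e-09). The P14 arrays of both genes were the high ones. Upp1, the uridine phosphorylase of pyrimidine salvage, read 2167, 1283 and 1132 at P14, against 58.2, 72.1 and 122 at E15.5, and Cyp3a13, a cytochrome P450, read 411, 377 and 759 at P14, against 20.6, 15.5 and 16.3 at E15.5, with log2 differences of 3.94 and 3.92. S100a3 and S100a2, calcium-binding proteins, differed by 4.14 and 3.95. S100a3 read 1579, 1280.0 and 1265 at P14, against 48.8, 49.6 and 98.3 at E15.5, and S100a2 read 1216, 1208 and 1147 at P14, against 36.7, 57.6 and 107 at E15.5. Erich5, a glutamate-rich protein, read 2866, 2906 and 3111 at P14, against 82.4, 147 and 239 at E15.5 (log2 difference 4.22). In all 7 of these genes the P14 arrays were the high ones.

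A few of the strong rises varied among the P14 arrays or, for Rgs5, at the ages between. Vwde, a secreted protein with von Willebrand factor and EGF-like domains, read 1791, 4824 and 2058 at P14, against 113, 109 and 82.1 at E15.5 and was highest on P14 replicate 2. Car3, a carbonic anhydrase, read 961, 2366 and 970.5 at P14, against 111, 30.2 and 25.8 at E15.5, again highest on that array. Their log2 differences were 4.50 and 4.40 (adjusted p = 6.4e-06 and 0.00024). Rgs5, a regulator of G-protein signalling known from the pericytes of small vessels, read 3395, 3410.2 and 4723 at P14, against 371, 145 and 114 at E15.5 (log2 difference 4.25, adjusted p = 0.0002). Its mean intensity with SD was 1880 ± 1838 at E17.5, 2151 ± 448 at P3 and 796 ± 751 at P7, so its course was uneven. Gngt1, the transducin gamma subunit of rod photoreceptors, read 309, 2601 and 1560.4 at P14, against 40.2, 28.9 and 21.6 at E15.5, a difference of 4.59. The order of Gngt1 over the P14 arrays was that of the retina sums given above, and its call was lost with P14 replicates 2 and 3 left out (2.83, adjusted p = 0.0659). The part of retina RNA in this result was not tested further.

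**Figure D2:**
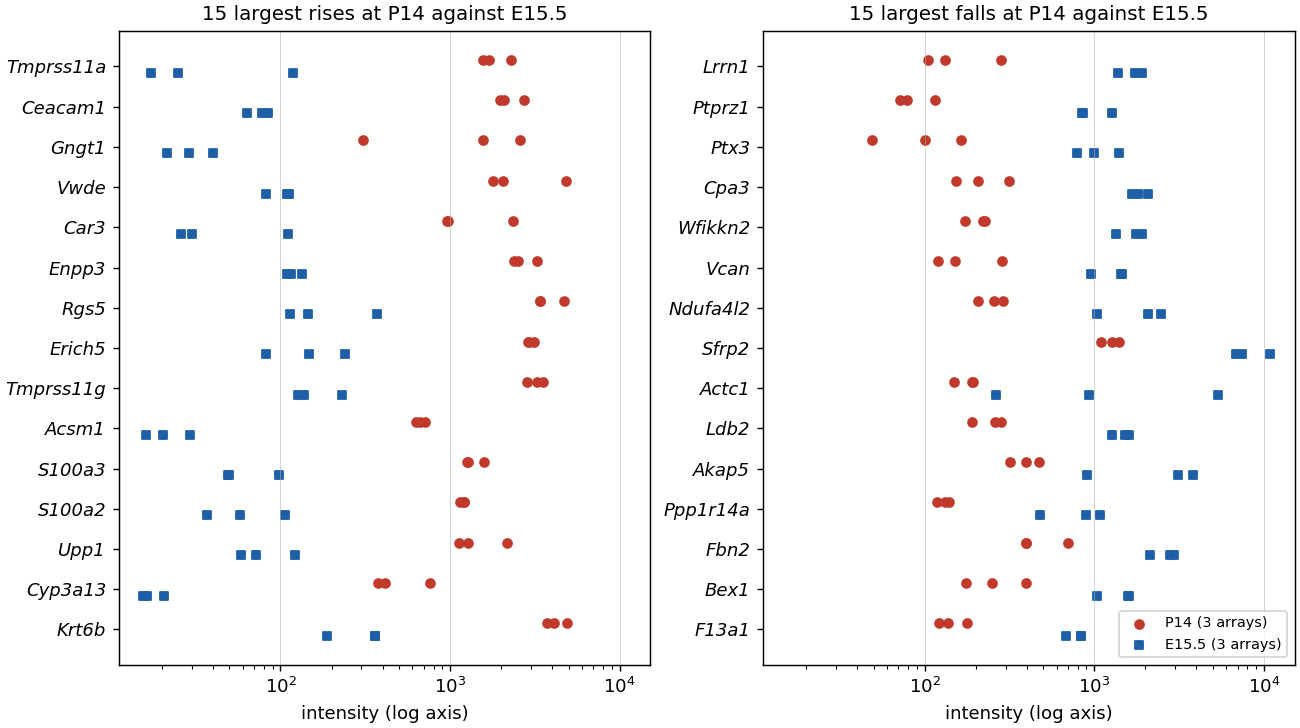
Intensity on each of the 3 P14 arrays (red circles) and 3 E15.5 arrays (blue squares), on a log axis, for the 15 genes with the largest rises (left) and the 15 with the largest falls (right) among called genes chosen for ages that do not overlap. Gngt1 spreads most among the P14 arrays and Actc1 among the E15.5 arrays.

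Products of the corneal epithelium formed one of the groups with most rises. This and the other gene lists were chosen with earlier results of these data known, so their shares and ranks are descriptions only. Of 26 tested corneal keratins and epithelial products 12 rose and none fell, with a median difference of 0.92 against -0.03 over all genes. Without E15.5 replicate 1, the array low in epithelial genes, the rises numbered 8, and they numbered 9 to 11 without any other one array. Aldh3a1, an aldehyde dehydrogenase so abundant in the cornea that it is called a corneal crystallin, read 7196, 4899 and 7148 at P14, against 319.8, 482 and 626 at E15.5. Every P14 array was at least 7 times every E15.5 array, and the log2 difference was 3.74 (SE 0.18, adjusted p = 1.6e-12). Tkt, the transketolase of the pentose phosphate pathway, read 3991, 2828 and 3659 at P14, against 852, 1137 and 1577 at E15.5 (log2 difference 1.57, adjusted p = 8.3e-07), and Aldh1a1, a retinal dehydrogenase, read 1507, 1581 and 1348 at P14, against 442, 258 and 212 at E15.5 (log2 difference 2.29, adjusted p = 2.8e-06). Adh7, an alcohol dehydrogenase that also acts on retinol, read 5742, 3650.4 and 3256 at P14, against 389, 662 and 675 at E15.5 (log2 difference 2.84, adjusted p = 7.7e-07). These metabolic products moved far more than Krt12, given above.

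Among the keratins the changes were uneven. Krt4 and Krt13, partner keratins of mucosal epithelia, read 782, 791 and 1146 at P14, against 76, 51.5 and 42.3 at E15.5 for the first and 4779.8, 3459 and 4407 at P14, against 728, 1875 and 1685 at E15.5 for its partner. Their log2 differences were 3.67 and 1.65 (adjusted p = 0.00059 and 0.00037), with no overlap in either. Krt5 and Krt14, the basal keratin pair, gave 0.12 and 0.93 and were not called (adjusted p = 0.862 and 0.0696). Krt19, a keratin of simple epithelia and of the limbus, rose by 1.22 (adjusted p = 0.0348), a call lost without P14 replicate 1, 2 or 3 or E15.5 replicate 1 or 3 (adjusted p between 0.0598 and 0.172). Lypd2 and Mal, membrane-associated epithelial products, rose by 1.17 and 1.06. Without E15.5 replicate 1 they gave 0.86 (adjusted p = 0.0246) and 0.80 (adjusted p = 0.00759), and Mal fell under the fold threshold without P14 replicate 1 too (0.97). Slurp1, a secreted epithelial protein, rose by 1.36 (adjusted p = 0.0376). In this fit of 32 arrays the call was lost without any one of the 6 arrays (adjusted p between 0.0529 and 0.16). It was kept in a fit of the 6 arrays alone, and lost in one of the 18 arrays of E14.5 to P14 (adjusted p = 0.114). Upk1b, a uroplakin, gave 0.90 (adjusted p = 0.0076), under the fold threshold.

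Keratins and envelope proteins of stressed or cornifying epithelia went both ways. Of 17 tested, 4 rose and 1 fell, with a median of 0.09. Krt16, a keratin of activated epithelium, read 684, 335 and 384 at P14, against 95.5, 55.6 and 28.9 at E15.5, and Ivl, involucrin of the cornified envelope, read 746, 444 and 419 at P14, against 80.4, 135 and 92.2 at E15.5. Their log2 differences were 2.70 and 2.20 (adjusted p = 2.3e-05 and 0.00013), and Krt17 rose by 1.26. Krtdap, a protein of differentiating keratinocytes, read 2843, 1214 and 1024 at P14, against 3169, 3661 and 4187 at E15.5 (log2 difference -1.25, adjusted p = 0.0132). The first P14 array lay close to the E15.5 arrays, and the call was lost without P14 replicate 2 or 3 or E15.5 replicate 3 (adjusted p between 0.0579 and 0.0947). Envelope genes such as Sprr1a and Tgm1, a transglutaminase that crosslinks envelope proteins, gave -0.14 and 0.13.

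Membrane mucins and the enzymes and lectins of the surface coat rose in 6 of 9 tested cases, and none fell (median difference 2.41). Mucins of this kind hold water and tears at the ocular surface. Muc4 read 3152, 2829 and 2903 at P14, against 246, 549 and 431 at E15.5, and its log2 difference was 2.88 (SE 0.31, adjusted p = 4.9e-07). Muc20 read 2264, 2064 and 1957 at P14, against 257, 277 and 257 at E15.5 (log2 difference 2.91, adjusted p = 3.7e-05), and Muc1 read 1509, 1037 and 1140.1 at P14, against 215, 184 and 180.2 at E15.5 (log2 difference 2.56, adjusted p = 1.2e-06). In all 3 genes the P14 arrays lay within a narrow band above the E15.5 arrays. Gm9573, for which RefSeq gives the synonym Muc21, read 1599.9, 1268 and 1883 at P14, against 108, 121 and 114 at E15.5, a log2 difference of 3.60 (adjusted p = 2.4e-06). Lgals3, galectin-3, which crosslinks mucins, read 1619, 1676 and 1587 at P14, against 142, 366 and 476 at E15.5 (log2 difference 2.41, adjusted p = 0.0046), and Galnt3, which starts O-glycans, rose by 1.76. Muc15 gave 0.24 and was not called (adjusted p = 0.766).

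All 6 measured Tmprss11 genes rose, in a list of Tmprss11 and serpin genes of which 7 of 12 tested rose and none fell (median 1.88), while 1 fell without E15.5 replicate 1. These membrane proteases lie next to each other on chromosome 5, in the order d, a, g, f, b and e among the tested genes of the RefSeq table. Tmprss11g read 3269, 2852 and 3512 at P14, against 137, 231 and 126 at E15.5, with a log2 difference of 4.198 (SE 0.22, adjusted p = 5e-12). Tmprss11d read 937, 479 and 839 at P14, against 64.4, 102 and 159 at E15.5 (log2 difference 2.64), and Tmprss11e read 255, 199.8 and 204 at P14, against 19, 29.2 and 6.1 at E15.5 (log2 difference 2.84). Tmprss11f and Tmprss11b rose by 2.48 and 2.37. No array of one age overlapped the other in any of the 6, as in 663 of the 674 called genes, and Tmprss11a and Tmprss11g were chosen for it. Serpinb1a, an inhibitor of neutrophil proteases, rose by 1.38 (adjusted p = 0.0018), and the secreted inhibitor Slpi gave 0.10.

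Other runs of at least 3 neighbouring tested genes that rose together were found at 5 places, and no such run of falling genes was found among the 12988 tested genes placed in the RefSeq table. They were Epgn, Ereg and Btc on chromosome 5, Ifi209, Ifi203 and Ifi202b on chromosome 1, Parp14, Dtx3l and Parp9 on chromosome 16, Pdzk1ip1, Cyp4a12a and Cyp4a12b on chromosome 4, and Psg17, Mill2 and Pglyrp1 on chromosome 7. The Ifi and Cyp4a12 genes are close copies of each other, and how far their probe sets are independent was not tested. Of all genes 3.21% rose and 1.98% fell, so falling runs had fewer genes to form from. The contrast between rising and falling runs was not tested.

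Detoxifying enzymes rose in 9 of 18 tested cases and none fell (median 1.13). Gsto1, a glutathione transferase of the omega class, read 6056, 4786 and 5314 at P14, against 339, 775 and 629 at E15.5, a log2 difference of 3.25 (SE 0.25, adjusted p = 2.6e-09). Gsta3, of the alpha class, read 2134, 1857 and 2131 at P14, against 158, 459.8 and 288 at E15.5 (log2 difference 2.81, adjusted p = 3.7e-08). Nqo1, a quinone reductase, read 680.3, 538 and 673 at P14, against 223, 166 and 179.6 at E15.5 (log2 difference 1.66, adjusted p = 2.6e-05). The ages did not overlap in these genes. Ephx1, the microsomal epoxide hydrolase, rose by 1.94, Gstm1 by 1.97, the carboxylesterase gene Ces1d by 1.78 and the aldehyde oxidase gene Aox3 by 1.28. Cyp2f2, a cytochrome P450, read 1434, 1622 and 330.4 at P14, against 182, 223 and 166 at E15.5, so the third P14 array lay well under the others. Its log2 difference was 2.19 (adjusted p = 0.0021), and the call was lost when limma weighted the arrays (1.16, adjusted p = 0.0528). Sod3, the extracellular superoxide dismutase, rose by 1.61, a call lost without P14 replicate 2 or 3 or E15.5 replicate 2 (adjusted p between 0.0627 and 0.154). Cat, catalase, gave -0.35 and the transferase gene Gstp1 -0.21, neither called.

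The framework of the epithelium gave few calls. None of 12 desmosome and plakin genes was called by limma (median 0.25, with 2 at an unadjusted p under 0.05), and Dsp, desmoplakin, read 5177, 4424 and 4783 at P14, against 3503, 5546 and 5893 at E15.5. The E15.5 arrays other than replicate 1 lay above all 3 of P14. Of 13 tight junction genes Cldn7 alone rose, with 1946, 1565 and 1456 at P14, against 423, 659 and 694 at E15.5 (log2 difference 1.48, adjusted p = 0.0047). Of 12 genes of the basement membrane and hemidesmosome Itga6, the laminin-binding integrin chain, rose by 1.14, and it gave 0.94 without P14 replicate 1 or without E15.5 replicate 2, under the fold threshold. Among 17 epithelial transcription factors 1 rose and 1 fell. Elf3, an ETS factor of differentiating epithelia, read 774, 537 and 521 at P14, against 105, 179.9 and 200.4 at E15.5 (log2 difference 1.84, adjusted p = 0.00033). Tfap2b, which is also made by neural crest cells, fell by 1.13 (adjusted p = 0.0434). In this fit of 32 arrays the call was lost without any one of the 6 arrays (adjusted p between 0.0711 and 0.135). It was kept in a fit of the 6 arrays alone, and lost in one of the 18 arrays of E14.5 to P14 (adjusted p = 0.101). Klf4, Ehf and Trp63, regulators of epithelial fate, gave 0.80, 0.72 and 0.27 and were not called.

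Some ligands of the EGF receptor family rose. These growth factors are made as membrane precursors, are shed, and drive growth and migration of corneal epithelium. Of 11 tested members 5 rose and none fell (median 0.45). Epgn, epigen, read 594, 585 and 661 at P14, against 42.2, 32.7 and 21 at E15.5, a log2 difference of 3.74 (SE 0.39, adjusted p = 2.9e-07). Ereg, epiregulin, read 471, 307 and 352 at P14, against 55.4, 44 and 64 at E15.5 (log2 difference 2.47, adjusted p = 0.00014), and Btc, betacellulin, read 409, 295 and 322 at P14, against 149, 114 and 71.3 at E15.5 (log2 difference 1.53, adjusted p = 0.00013). The ages were apart in each of these neighbours on chromosome 5. Nrg1, neuregulin, a ligand of Erbb3 and Erbb4, read 287, 185 and 285 at P14, against 47.3, 20.6 and 15.1 at E15.5 (log2 difference 2.66, adjusted p = 4e-05). Hbegf rose by 1.49 (adjusted p = 0.0225), a call lost without P14 replicate 1 or E15.5 replicate 2 or 3 (adjusted p between 0.0559 and 0.128). Egfr gave 0.45 (adjusted p = 0.421), Erbb2 -0.60, Erbb3 0.05 and the ligand Tgfa -0.17.

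Some genes of innate defence were higher at P14. Interferon response genes rose in 4 of 13 tested cases and 1 fell (median 0.34), and without E15.5 replicate 2 the rising members numbered 2. Oasl2, an oligoadenylate synthetase-like protein, read 467, 542 and 401 at P14, against 36.5, 50.6 and 42.1 at E15.5, a log2 difference of 3.04 (SE 0.44, adjusted p = 2.7e-05). Ifih1, a cytosolic sensor of viral RNA, read 480.1, 315 and 377 at P14, against 97.6, 156 and 113 at E15.5 (log2 difference 1.56, adjusted p = 2.4e-05). Both showed no overlap of the ages. Ifit3 read 894, 716 and 903 at P14, against 383, 188 and 272 at E15.5 (log2 difference 1.57, adjusted p = 0.0127), and its adjusted p was 0.0662 without E15.5 replicate 2. Ifit1 rose by 1.35 (adjusted p = 0.0497), a call kept in a fit of the 6 arrays alone. In the main fit of 32 arrays the rise was not called without any one of the 6 (adjusted p between 0.0596 and 0.16). Ifit2 went the other way, with 473, 254 and 259.8 at P14, against 713, 556 and 857 at E15.5, and fell under the fold threshold without P14 replicate 2 or 3 or E15.5 replicate 3 (differences between -0.98 and -0.96). Irf7 and Usp18, further interferon response genes, gave 0.34 and 0.15.

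The promoters of Ifit1 and Ifit3 hold letters of the interferon-stimulated response element. They are shown because both genes rose and lie close together on chromosome 19. The motif searched was GAAA, any 2 bases and GAAA again, on both strands of the 250 bases before each gene's start, and capitals mark its matches. Sequences are from RefSeq, build GRCm38.p6, for Ifit1 at chr19:34640639-34640888 and Ifit3 at chr19:34583279-34583528, both on the plus strand.
Ifit1: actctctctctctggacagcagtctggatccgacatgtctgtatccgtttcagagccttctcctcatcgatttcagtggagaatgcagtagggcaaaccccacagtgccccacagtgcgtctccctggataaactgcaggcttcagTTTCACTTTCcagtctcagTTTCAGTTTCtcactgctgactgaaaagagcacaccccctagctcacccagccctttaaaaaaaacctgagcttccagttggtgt
Ifit3: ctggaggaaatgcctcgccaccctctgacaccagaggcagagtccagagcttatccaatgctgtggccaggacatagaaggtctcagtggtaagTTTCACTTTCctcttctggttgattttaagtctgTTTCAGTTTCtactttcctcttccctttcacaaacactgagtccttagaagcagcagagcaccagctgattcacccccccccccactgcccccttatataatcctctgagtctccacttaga
Among 10343 promoters of tested genes 2.5% held the motif, and it was in 4.0% of 321 promoters of rising genes and 1.5% of 206 of falling genes. Of 11 interferon response genes with a promoter 4 held it. Oasl2, the member with the largest difference, had no match in these letters of its window.

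Antigen processing, cytokine and leukocyte genes changed in a few members each. Of 10 antigen processing genes the immunoproteasome subunits Psmb8 and Psmb9 rose. Psmb8 read 783, 691 and 673 at P14, against 96.7, 218 and 160.4 at E15.5 and Psmb9 read 756, 661 and 499.6 at P14, against 139, 151 and 216 at E15.5, with log2 differences of 2.13 and 1.83 (adjusted p = 0.0004 and 3.9e-05). B2m, the light chain of class I molecules, gave 0.16. Of 11 genes of the interleukin-1 family and epithelial cytokines 2 rose: Il1rn, the receptor antagonist, with 1677, 1029 and 983 at P14, against 321, 378 and 353 at E15.5 (log2 difference 1.73, adjusted p = 1.2e-05), and Il18 by 1.51. Among 12 macrophage and leukocyte markers Itgam, the integrin CD11b, read 373, 446 and 440.2 at P14, against 65.8, 52.4 and 41.5 at E15.5 (log2 difference 2.67, adjusted p = 0.00013), while Mrc1, the macrophage mannose receptor, read 607, 300.3 and 223 at P14, against 1387, 1028 and 1408 at E15.5 (log2 difference -1.82, adjusted p = 0.00021). The summed intensity of this list was 4286, 3810 and 3689 at P14, against 5558, 4641 and 5571 at E15.5. Lyz2, lysozyme, rose by 1.29, and gave 0.93 (adjusted p = 0.0654) without P14 replicate 1. Falling members of the list numbered 2 without E15.5 replicate 1, and 3 without E15.5 replicate 2 or P14 replicate 1.

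A gene of mast cells and one of macrophages were among the 15 largest falls. Cpa3, the mast cell carboxypeptidase, read 315, 154 and 207 at P14, against 1800.3, 1671 and 2066 at E15.5, a log2 difference of -2.997 (SE 0.28, adjusted p = 6e-08). F13a1, the factor XIII subunit made by macrophages, read 121, 177 and 137 at P14, against 837, 681 and 839 at E15.5 (log2 difference -2.32, SE 0.16, adjusted p = 5.4e-10). The E15.5 arrays were the high ones in both genes. Kit, the stem cell factor receptor of mast cells and pigment cells, moved the other way, with 913, 806 and 944 at P14, against 261, 258 and 293 at E15.5 (log2 difference 1.66, adjusted p = 6e-08), and it was the only one of 8 pigment cell markers called with all arrays (2 others fell without E15.5 replicate 3). Ptx3, the long pentraxin of innate immunity, read 164, 100.2 and 49.2 at P14, against 1004, 796 and 1401 at E15.5 (log2 difference -3.25, adjusted p = 3.7e-06).

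Clock genes moved in opposite directions. Of 17 tested 3 rose and 1 fell, with a median of 0.66, and without E15.5 replicate 3 the rises numbered 5 and without E15.5 replicate 1 the falls 2. Nr1d1, the repressor REV-ERB alpha, read 489, 519.7 and 539 at P14, against 99.3, 102 and 146 at E15.5, and Per3, a period protein, read 376, 400.4 and 450.4 at P14, against 112, 120.2 and 144 at E15.5. Their log2 differences were 2.03 and 1.59 (adjusted p = 9.8e-06 and 2.6e-08). Nfil3, a repressor whose RNA is known to cycle against that of Dbp, read 341, 298 and 280.2 at P14, against 1054, 909 and 1242 at E15.5 (log2 difference -1.74, adjusted p = 0.00074). None of the 3 genes overlapped between the ages. Bhlhe40 rose by 1.33, and by 0.90 (adjusted p = 0.0236) without E15.5 replicate 1, under the fold threshold. The output gene Dbp gave 0.88 (adjusted p = 0.0012), and the core genes Arntl and Per2 gave 0.39 and 0.23. The labels do not give the hour of collection, so age and time of day cannot be told apart. Among 12 immediate early genes Egr1, a zinc finger factor induced within minutes of a stimulus, read 1267, 1125 and 465 at P14, against 239, 72.9 and 167 at E15.5 (log2 difference 2.47, adjusted p = 0.00032) and Dusp1 rose by 1.18, while Fos gave 0.67.

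Transport genes of the endothelium and epithelium rose in part. Of 13 corneal endothelial and Descemet membrane genes Car3, given above, and Slc4a11, the endothelial transporter whose loss in people causes corneal dystrophy, rose, and without E15.5 replicate 1 the rises numbered 4. Slc4a11 read 282, 477 and 317 at P14, against 57.6, 88.6 and 74.1 at E15.5 (log2 difference 2.05, adjusted p = 2.3e-05). The highest array was P14 replicate 2, where the whole list summed to 14974, against 10200 and 9137 on the other P14 arrays and 8019, 8459 and 9598 at E15.5. Aqp5, the water channel of corneal epithelium, read 604, 969 and 979 at P14, against 47.2, 48.4 and 62 at E15.5, a log2 difference of 3.63 (SE 0.30, adjusted p = 6.9e-09). Gjc1, connexin 45, read 316, 209 and 235 at P14, against 809, 627 and 807 at E15.5 (log2 difference -1.52, adjusted p = 8.2e-06). Of 8 aquaporins and connexins these were the called ones, and 3 rose without E15.5 replicate 3. Of 14 solute carriers of the cornea 3 rose: Slc6a14, an amino acid transporter, read 2536, 1717 and 1618 at P14, against 206, 483 and 394 at E15.5 (log2 difference 2.44, adjusted p = 0.0016), and the taurine transporter Slc6a6 rose by 1.22. The zinc and metal ion carrier Slc39a8 rose by 1.01, and this was lost without P14 replicate 3 or E15.5 replicate 1 (adjusted p between 0.0701 and 0.0855).

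**Figure D3:**
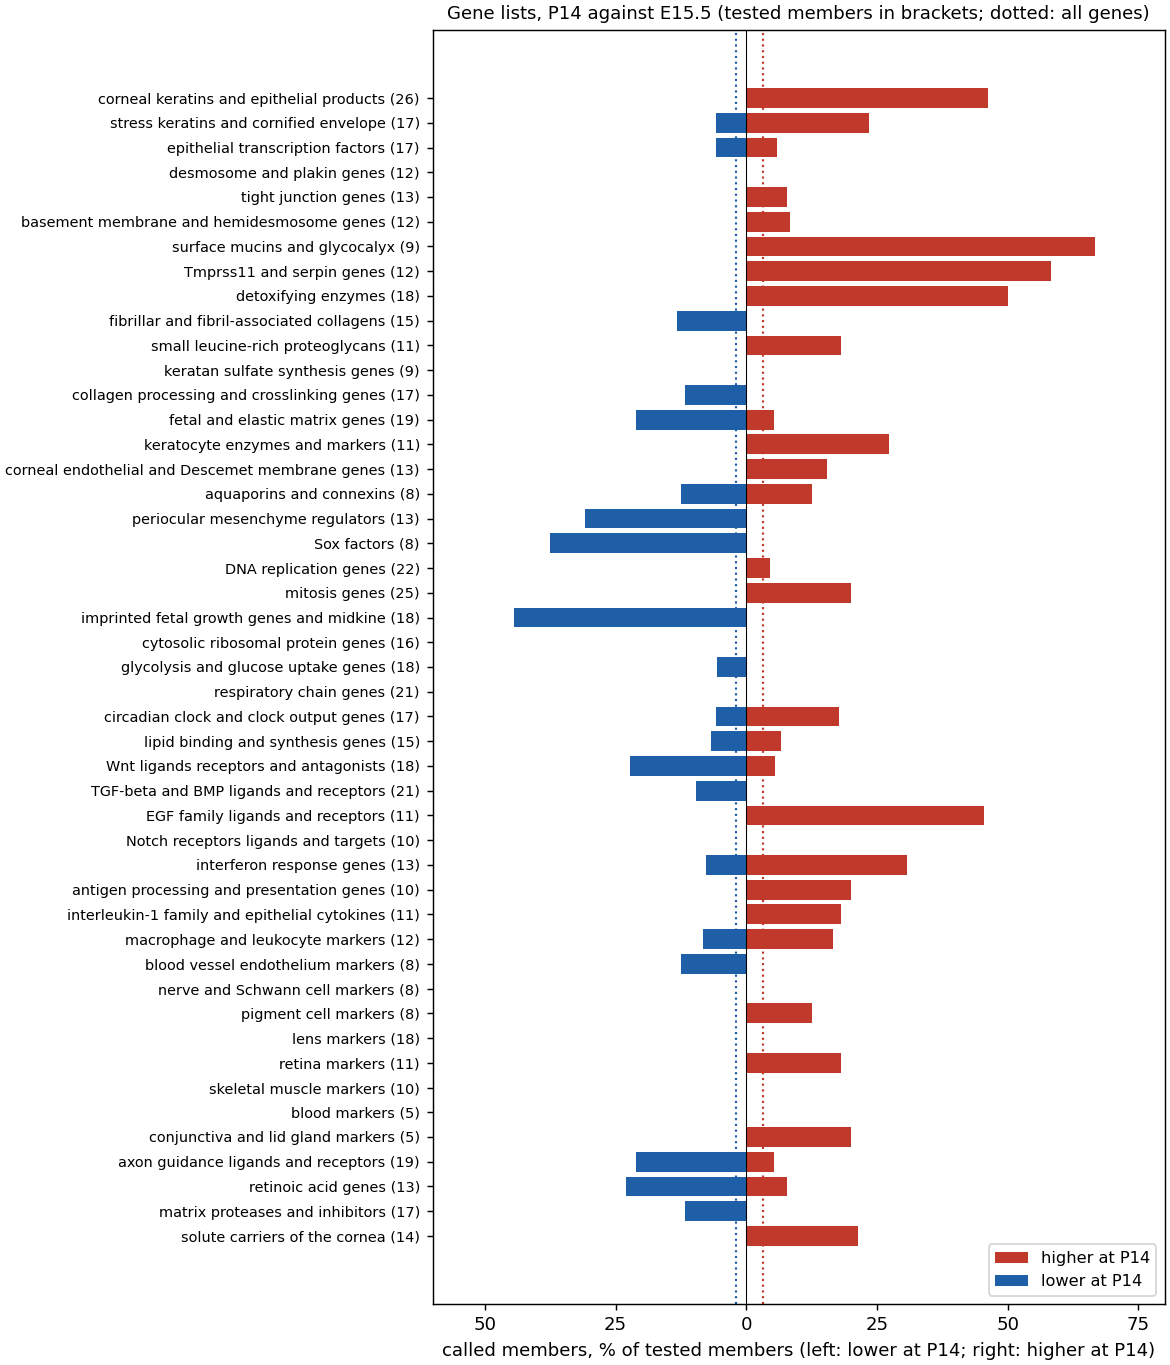
Share of tested members called higher at P14 (red, to the right) and lower at P14 (blue, to the left) in 47 gene lists, in percent, with the number tested in brackets. Dotted lines mark the shares over all genes, 3.21% higher and 1.98% lower. Lists of the epithelial surface reach farthest to the right, and imprinted growth genes and Sox factors farthest to the left. The lists were chosen with earlier results of these data known.

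Among the largest falls was Lrrn1, a leucine-rich repeat membrane protein of the nervous system and neural crest, which read 281, 105 and 132 at P14, against 1905, 1382 and 1732 at E15.5, a log2 difference of -3.26 (SE 0.33, adjusted p = 1.8e-07). Ptprz1, a receptor phosphatase that binds midkine and pleiotrophin, read 71.7, 116 and 79.1 at P14, against 843, 857 and 1279 at E15.5 (log2 difference -3.26, adjusted p = 5.8e-07). Ldb2, a cofactor of LIM-domain proteins, read 261, 284 and 190.1 at P14, against 1596, 1269 and 1525 at E15.5 (log2 difference -2.51, adjusted p = 4.4e-08). All E15.5 arrays lay at least 4 times above all P14 arrays in these 3 genes. Ndufa4l2, a mitochondrial protein induced by low oxygen, read 288, 207 and 257 at P14, against 1039, 2066 and 2477 at E15.5 (log2 difference -2.74). Akap5, an anchor of protein kinase A, read 319, 471 and 397 at P14, against 3129, 911 and 3843 at E15.5, and Ppp1r14a, an inhibitor of myosin phosphatase, read 118, 140.0 and 132 at P14, against 481, 899 and 1078 at E15.5. Their log2 differences were -2.46 and -2.44, with a wide spread among the E15.5 arrays.

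Further large falls came with limits. Wfikkn2, a secreted inhibitor of myostatin-like factors, read 220.3, 226 and 174 at P14, against 1761, 1342 and 1925 at E15.5 (log2 difference -2.92, adjusted p = 2.2e-05), but the gene's other kept probe set gave -0.39 and was not called (adjusted p = 0.13). Bex1, a brain-expressed X-linked gene, read 250.1, 396 and 176 at P14, against 1595, 1034 and 1573 at E15.5 (log2 difference -2.33, adjusted p = 0.0014). Actc1, cardiac actin, which embryonic skeletal muscle also makes, read 149.8, 194 and 191 at P14, against 5360.0, 264 and 932 at E15.5 (log2 difference -2.54, adjusted p = 0.0127). Its order over the E15.5 arrays put replicate 1, the muscle-rich one, far above the others, and without that array it gave -1.42 (adjusted p = 0.121).

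Matrix of the fetal stroma fell in some members. Of 19 fetal and elastic matrix genes 4 fell and 1 rose (median -0.15). Vcan, the proteoglycan versican of migrating mesenchyme, read 287, 119 and 150.5 at P14, against 1468, 959 and 1436 at E15.5 (log2 difference -2.76, SE 0.42, adjusted p = 5.1e-05). Fbn2, the fibrillin of developing tissue, read 698, 395 and 396 at P14, against 2958, 2135 and 2809.5 at E15.5 (log2 difference -2.41, adjusted p = 2.8e-05), and Fbln1, fibulin-1, read 398, 303 and 311 at P14, against 1388, 871 and 1096 at E15.5 (log2 difference -1.67, adjusted p = 0.00019). The ages did not overlap in these genes. Mfap2, a microfibril glycoprotein, fell by 1.26 (adjusted p = 0.0089). Tgfbi, whose product keratoepithelin is deposited in inherited corneal dystrophies of people, rose, with 2806, 2331 and 3124 at P14, against 864, 1294 and 1354 at E15.5 (log2 difference 1.24, adjusted p = 0.0016). Fn1, fibronectin, gave -0.99 and Postn, periostin, -0.66, and neither was called (adjusted p = 0.118 and 0.517).

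Few collagens passed the test. Of 15 fibrillar and fibril-associated collagens 2 fell and none rose (median -0.66). Col14a1, which binds fibrils and limits their growth, read 6112, 3039 and 3883 at P14, against 11678, 12199 and 15737 at E15.5 (log2 difference -1.65, adjusted p = 0.0068). Col3a1 read 1758, 1251 and 1711 at P14, against 3773, 3817 and 4594 at E15.5 (log2 difference -1.37, adjusted p = 0.032). In this fit of 32 arrays the call was lost without any one of the 6 arrays (adjusted p between 0.0507 and 0.112). A fit of the 6 arrays alone kept it. The count of falling collagens was 1 without any one P14 array or without E15.5 replicate 2 or 3. Col1a1, the main fibrillar chain, read 3574, 4072 and 3975 at P14, against 5774, 6398 and 7568 at E15.5, with no overlap of the ages but an adjusted p of 0.193 (log2 difference -0.76). Of 17 collagen processing genes P4ha2, a prolyl hydroxylase subunit, fell by 1.61 (adjusted p = 0.00019) while P3h1, a prolyl hydroxylase, gave a called difference of -1.195, lost without P14 replicate 2 or 3 or E15.5 replicate 1 or 3 (adjusted p between 0.0613 and 0.146). Falling members of this list numbered 2 with all arrays, 4 without E15.5 replicate 2, 6 without P14 replicate 1, and 1 without P14 replicate 2 or 3 or E15.5 replicate 3. Among 17 matrix proteases and inhibitors 2 fell: the membrane protease genes Mmp16 and Mmp14, with log2 differences of -1.46 and -1.02. Mmp14 lay under the fold threshold without P14 replicate 2 or 3 or E15.5 replicate 1 or 3.

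Proteoglycans and keratocyte genes of the stroma also gave few calls. Of 11 small leucine-rich proteoglycans 2 rose (median -0.24). Prelp, a proteoglycan that binds collagen and heparan sulfate, read 548, 471 and 403 at P14, against 167, 184 and 171 at E15.5 (log2 difference 1.36, adjusted p = 1.9e-05). Fmod, fibromodulin, rose by 1.69 (adjusted p = 0.0198), and this was lost without P14 replicate 1 or 2 or E15.5 replicate 2 or 3 (adjusted p between 0.0611 and 0.0846), which left 1 rise. Lum, lumican, gave -0.29 and Dcn, decorin, -0.03. None of 9 keratan sulfate synthesis genes was called by limma with all arrays (median -0.22, with 2 at an unadjusted p under 0.05), and 1 fell without P14 replicate 2 or E15.5 replicate 2. Of 11 keratocyte enzymes and markers 3 rose, among them Aldh3a1 and Aldh1a1, which the epithelium also makes. The third, Angptl7, a secreted angiopoietin-like protein of the stroma, rose by 1.83 (adjusted p = 0.0211), and its call was lost without P14 replicate 1 or 3 or E15.5 replicate 2 or 3 (adjusted p between 0.0574 and 0.095). Ptgds, prostaglandin D synthase of keratocytes, gave 0.18 (adjusted p = 0.827).

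Wnt pathway genes fell more often than they rose. Of 18 tested ligands, receptors, antagonists and targets 4 fell and 1 rose (median -0.45). Sfrp2, a secreted protein that binds Wnt ligands, read 1277, 1396 and 1097 at P14, against 10942, 7466 and 6845 at E15.5 (log2 difference -2.70, SE 0.46, adjusted p = 0.00017). Lef1, a transcription factor that acts with beta-catenin, read 265, 271 and 286 at P14, against 813, 1489 and 1410.5 at E15.5 (log2 difference -2.06, adjusted p = 6.8e-06). Axin2, a feedback inhibitor and a common Wnt target, read 519, 388 and 288 at P14, against 1043, 1342 and 1402 at E15.5 (log2 difference -1.65, adjusted p = 0.00033). In each gene all E15.5 arrays lay above all P14 arrays. Dkk2, an antagonist needed for corneal fate in the mouse, fell by 1.57 (adjusted p = 0.0326), and that was lost without P14 replicate 2 or 3 or any one E15.5 array (adjusted p between 0.0506 and 0.129). The receptor gene Fzd4 rose by 1.21, and by 0.99 without E15.5 replicate 3. Wnt5a and Wnt7b, the ligands, gave -0.63 and -0.29.

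Of 21 TGF-beta and BMP genes the ligands Tgfb3, with 265, 360.2 and 226 at P14, against 1169, 503 and 784 at E15.5, and Tgfb2, with 393, 496 and 336 at P14, against 1203, 809 and 899.9 at E15.5, fell (log2 differences -1.42 and -1.21, adjusted p = 0.0013 and 3e-05). None of 10 Notch genes was called by limma (2 had an unadjusted p under 0.05), and Notch1 gave -0.40 (adjusted p = 0.0625). Of 8 Sox factors Sox11, Sox4 and Sox12, a related group active in progenitor cells, fell. Sox4 read 209, 262 and 227 at P14, against 547, 675 and 734 at E15.5 and Sox12 read 432, 454 and 356 at P14, against 869, 1024 and 872 at E15.5, with log2 differences of -1.42 and -1.13 (adjusted p = 0.0048 and 1.6e-05), and Sox11 fell by 1.35. Of 13 periocular mesenchyme regulators 4 fell. Twist2, a basic helix-loop-helix factor of mesenchyme, read 882, 641 and 693 at P14, against 2119, 2505 and 3105 at E15.5 (log2 difference -1.78, adjusted p = 0.0071), and Twist1 fell by 1.43, a call lost without P14 replicate 2 or 3 or E15.5 replicate 3 (adjusted p between 0.0521 and 0.0809). Foxc2, a forkhead factor of the anterior eye, read 257, 180.3 and 119 at P14, against 1794, 458 and 343 at E15.5, highest on E15.5 replicate 1, and its call was lost without that array or P14 replicate 2 or 3 (adjusted p between 0.0673 and 0.215). With Tfap2b, given above, these made the 4, and the count was 1 without P14 replicate 2 or 3 and 2 without E15.5 replicate 1.

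Guidance genes of growing axons, which enter the cornea before birth, fell in 4 of 19 tested cases and 1 rose (median -0.51). Epha7, an ephrin receptor, read 176, 171 and 179.8 at P14, against 934, 769 and 796 at E15.5, a log2 difference of -2.14 (SE 0.21, adjusted p = 1.1e-07). Robo1, a receptor for Slit proteins, read 606, 589 and 597 at P14, against 1472, 1553 and 1909 at E15.5 (log2 difference -1.43, adjusted p = 5.6e-05). The ages did not overlap in either gene. Robo2 and the ligand Efna5 fell, with log2 differences of -1.08 and -1.07. Both calls were lost without P14 replicate 3 or E15.5 replicate 3, with differences between -1.07 and -0.88 for Robo2 and between -0.99 and -0.96 for Efna5, so that the falling members then numbered 2. Slit2 rose by 1.06, and that was lost without P14 replicate 2 or E15.5 replicate 2 or 3 (adjusted p between 0.07 and 0.15). Sema3a, a repellent of growing corneal nerves in the chick, gave -0.91 (adjusted p = 0.0182). None of 8 nerve and Schwann cell markers was called by limma with all arrays (2 had an unadjusted p under 0.05), and 1 rose without E15.5 replicate 1.

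Retinoic acid genes moved in both directions, 3 of 13 down and 1 up. Crabp1 and Crabp2, which bind retinoic acid in the cytosol, read 2209.7, 1230.5 and 1298 at P14, against 5633, 5779 and 7508 at E15.5 for the first and 2241, 909 and 718 at P14, against 4913, 4527 and 5404 at E15.5 for the other. Their log2 differences were -2.03 and -2.10 (adjusted p = 0.00011 and 0.00014). Rdh10, which oxidises retinol, read 525, 523 and 321 at P14, against 1013, 846 and 1443 at E15.5 (log2 difference -1.24, adjusted p = 0.00023). In all 3 genes the E15.5 arrays lay above the P14 arrays, while Aldh1a1, which makes retinoic acid from retinal, was the member that rose.

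Of 18 imprinted and fetal growth genes 8 fell and none rose (median -1.02, against -0.03 over all genes). This was the largest falling share among the lists of at least 10 tested genes. The lists were chosen with earlier results of these data known, so the rank is a description only. Imprinted genes are read from 1 parental copy, and many of them are known to be turned down together after birth in several tissues. Igf2, the fetal insulin-like growth factor, read 982, 935 and 876 at P14, against 4785, 3546 and 3573 at E15.5, a log2 difference of -2.06 (SE 0.40, adjusted p = 0.00072). Cdkn1c, the cell cycle inhibitor p57, read 1112, 788 and 725 at P14, against 3888, 3125 and 2946 at E15.5 (log2 difference -1.92, adjusted p = 1.1e-05). Mest read 838, 733 and 529 at P14, against 3752, 1718 and 1919.9 at E15.5 (log2 difference -1.73, adjusted p = 1.1e-05), and Peg3, a zinc finger factor, read 2509.6, 1793 and 1842 at P14, against 4941, 4250.3 and 4688 at E15.5 (log2 difference -1.18, adjusted p = 0.0046). No P14 array reached the lowest E15.5 array in any of these genes. Zim1 and Grb10 fell by 1.63 and 1.22, and Mdk, the growth factor midkine, which is not imprinted, by 1.21. Meg3, a maternally expressed long noncoding RNA, fell by 1.22 (adjusted p = 0.0261), a call lost without P14 replicate 1 or E15.5 replicate 2 or 3 (adjusted p between 0.0706 and 0.127). Igf2r and Dlk1 gave -0.86 and -0.29 and were not called.

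Some genes of cell division rose, with counts that depended on single arrays. Of 25 mitosis genes 5 rose and none fell (median 0.85), and of 22 DNA replication genes 1 rose and none fell (median 0.70). Anln, the cytokinesis protein anillin, read 974, 785 and 983 at P14, against 384, 182 and 243 at E15.5 (log2 difference 1.76, adjusted p = 7.5e-06), and Rrm2, the ribonucleotide reductase subunit, read 951, 741 and 764 at P14, against 309.7, 170.2 and 299 at E15.5 (log2 difference 1.63, adjusted p = 6.6e-06). Neither gene overlapped between the ages. Mki67, the antigen of cycling cells, read 1099.9, 891 and 1118 at P14, against 658, 365 and 538 at E15.5 (log2 difference 1.00, adjusted p = 0.002), and it fell under the fold threshold without P14 replicate 1 or 3 or E15.5 replicate 2 (differences between 0.78 and 0.96). Kif11, Birc5 and Ccnb2 rose by 1.11, 1.05 and 1.09. Without E15.5 replicate 2 they gave 0.90, 0.83 and 0.80, and without P14 replicate 1 Kif11 gave 0.94 and Birc5 0.96. Mki67, Kif11, Birc5 and Ccnb2 already averaged 866, 603.5, 1059 and 821 at E17.5. Their means were 520, 319, 632 and 454 at E15.5 and 1036, 694, 1294 and 949 at P14, so most of their rise was there by E17.5. Anln averaged 270 at E15.5, 418 at E17.5 and 914 at P14, and Rrm2 averaged 260, 563 and 819. The rising mitosis genes numbered 12 without E15.5 replicate 1, 9 without P14 replicate 2, 2 without P14 replicate 1 and 1 without E15.5 replicate 2. For the replication genes the count was 9 without E15.5 replicate 1 and 6 without P14 replicate 2. E15.5 replicate 1 was the highest of its age for the mitosis genes, whose summed intensity was 18726, 14121 and 17147 at P14, against 11665, 6823 and 9006 at E15.5.

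The promoters of Kif11, Ccnb2 and Mki67 are shown because these 3 of the 5 called mitosis genes hold letters of 2 motifs known from promoters of mitotic genes. The motifs are the CCAAT box and the core of the cell cycle homology region. In Kif11 and Mki67 the TTTGAA matches lie nearer the start than the CCAAT matches. In Ccnb2 the TTTGAA match lies farther out, 167 bases before the start, and whether any match is used was not tested. The letters searched were CCAAT and TTTGAA on both strands of the 250 bases before the start, and capitals mark the matches, so that ATTGG and TTCAAA are matches on the other strand. Sequences are from RefSeq, build GRCm38.p6, for Kif11 at chr19:37376132-37376381 on the plus strand, Ccnb2 at chr9:70421555-70421804 on the minus strand and Mki67 at chr7:135716380-135716629 on the minus strand.
Kif11: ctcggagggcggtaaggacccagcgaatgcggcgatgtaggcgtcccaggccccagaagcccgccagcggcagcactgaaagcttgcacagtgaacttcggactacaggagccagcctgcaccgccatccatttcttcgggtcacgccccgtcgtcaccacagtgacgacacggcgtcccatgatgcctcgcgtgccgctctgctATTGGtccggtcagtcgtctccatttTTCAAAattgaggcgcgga
Ccnb2: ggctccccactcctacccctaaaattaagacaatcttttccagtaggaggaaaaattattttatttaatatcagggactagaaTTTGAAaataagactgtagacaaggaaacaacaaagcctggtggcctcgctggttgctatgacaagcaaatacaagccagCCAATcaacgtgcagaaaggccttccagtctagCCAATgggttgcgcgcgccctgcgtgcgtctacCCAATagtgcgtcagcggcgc
Mki67: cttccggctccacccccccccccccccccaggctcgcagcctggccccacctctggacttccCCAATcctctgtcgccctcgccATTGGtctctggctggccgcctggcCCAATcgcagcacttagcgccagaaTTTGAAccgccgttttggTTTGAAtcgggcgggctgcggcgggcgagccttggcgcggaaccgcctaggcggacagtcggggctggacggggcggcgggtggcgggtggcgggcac
The CCAAT letters were in 17 of 20 mitosis gene promoters (85.0%), against 35.7% of all promoters of tested genes, and TTTGAA in 7 of 20 (35.0%), against 11.2%. Of the 5 called mitosis genes 3 (60.0%) held CCAAT and the same 3 held TTTGAA, so the CCAAT share was lower among the called members than in the list. Among all rising genes the shares were 37.1% and 15%, and among falling genes 34.0% and 11.2%. For the detoxifying enzymes the antioxidant response element TGACNNNGC, searched on both strands, was found in 1 of 14 promoters, that of Gsta3, against 11.7% of all.

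Basic metabolism gave few calls. None of 16 cytosolic ribosomal protein genes and none of 21 respiratory chain genes was called by limma (medians 0.03 and 0.04, with 1 and 4 genes at an unadjusted p under 0.05). Of 18 glycolysis and glucose uptake genes Slc2a1, the glucose transporter GLUT1, fell, with 1484, 1048 and 1237 at P14, against 2689, 3791 and 4884 at E15.5 (log2 difference -1.55, SE 0.30, adjusted p = 0.00058). The lowest E15.5 array lay well above the highest P14 array. Pgk1 and Ldha, enzymes of glycolysis, gave -0.20 and -0.03. Falling genes of the list numbered 2 without E15.5 replicate 1. Of 15 lipid genes Elovl7, a fatty acid elongase, read 1222, 1951 and 1269.8 at P14, against 349.9, 324 and 584 at E15.5 (log2 difference 1.80, adjusted p = 0.003), and Cd36, a fatty acid carrier, fell by 1.36 (adjusted p = 0.002).

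Markers of other cell types were called in few cases. None of 18 lens genes was called by limma with all arrays, and 6 had an unadjusted p under 0.05. Their median difference was 1.5, and the P14 arrays differed widely. Crygs, a lens crystallin, read 107, 8287 and 418 at P14, against 102, 109.8 and 126 at E15.5, and 5 lens genes rose without P14 replicate 1. Of 11 retina genes Sag, rod arrestin, read 177, 1733 and 802 at P14, against 53.1, 66.7 and 84.7 at E15.5 (log2 difference 2.97, adjusted p = 0.0046), and Pde6b, the rod phosphodiesterase, read 67.4, 990.4 and 378 at P14, against 49.95, 59.1 and 95.5 at E15.5 (log2 difference 1.97, adjusted p = 0.0423). For Pde6b the ages overlapped. The retina count was 2 with all arrays, 7 without P14 replicate 1, and 1 without P14 replicate 2 or 3 or E15.5 replicate 2 or 3, and the Pde6b call was lost without P14 replicate 2 or 3 or any one E15.5 array (adjusted p between 0.0629 and 0.283). With P14 replicates 2 and 3 left out, Sag gave 1.21 (adjusted p = 0.39). No muscle gene of 10 and no blood gene of 5 was called by limma with all arrays (2 and 1 had an unadjusted p under 0.05), and 2 muscle genes fell without E15.5 replicate 2 and 1 blood gene without E15.5 replicate 3. Of 8 vessel markers Kdr, the VEGF receptor, read 287, 264 and 227 at P14, against 761, 576 and 994 at E15.5 (log2 difference -1.50, adjusted p = 3.2e-06), while Pecam1 and Cdh5 gave 0.36 and 0.03. Of 5 conjunctiva and lid gland markers Agr2, a disulfide isomerase of mucus-making cells, read 421, 395 and 616 at P14, against 120.1, 122 and 106 at E15.5 (log2 difference 1.88, adjusted p = 5.5e-05), and the goblet cell mucin Muc5ac gave 0.07.

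The 3 ages between E15.5 and P14 place the change in time, as a description with no test, since the genes were chosen by the 2 ends. The median log2 level of the 417 rising genes was 7.59 at E15.5, 7.84 at E17.5, 8.37 at P3, 9.04 at P7 and 9.31 at P14. That of the 257 falling genes was 9.95, 9.80, 9.06, 8.75 and 8.46 at the same ages, and over all genes it stayed between 8.65 and 8.72. The rising genes thus gained most between P3 and P7, and the falling genes lost most between E17.5 and P3. The midpoint between the 2 ends was first passed at P7 by 231 rising genes (55.4%), at P3 by 98, at E17.5 by 69 and at P14 by 19. Among falling genes 152 (59.1%) first passed it at P3, 70 at P7, 26 at E17.5 and 9 at P14. An age between lay outside the range of both ends by at least 1 log2 unit for 12 rising and 4 falling genes.

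Single genes followed these courses. Aldh3a1 averaged 311 ± 25.5 at P3 and 5514 ± 1011 at P7 (mean intensity with SD, n = 3 each), and 6414 ± 1312 at P14. Tmprss11d averaged 43.7 ± 21.7 at P3, 1243 ± 518 at P7 and 751 ± 241 at P14. The step between P3 and P7 was the large one in both. Ceacam1 climbed earlier, with 128 ± 63.2 at E17.5, 512 ± 329.8 at P3 and 1177 ± 119 at P7. Sfrp2 averaged 9439.8 ± 1960.1 at E17.5, 2836 ± 458 at P3 and 1051 ± 262 at P7, and F13a1 averaged 558 ± 144, 166 ± 9.05 and 158 ± 11.5 at those ages. Lypd2 dipped on the way, with 378 ± 94.1 at P3, below its E15.5 mean of 2239.6 ± 755, before 4859 ± 472 at P14.

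**Figure D4:**
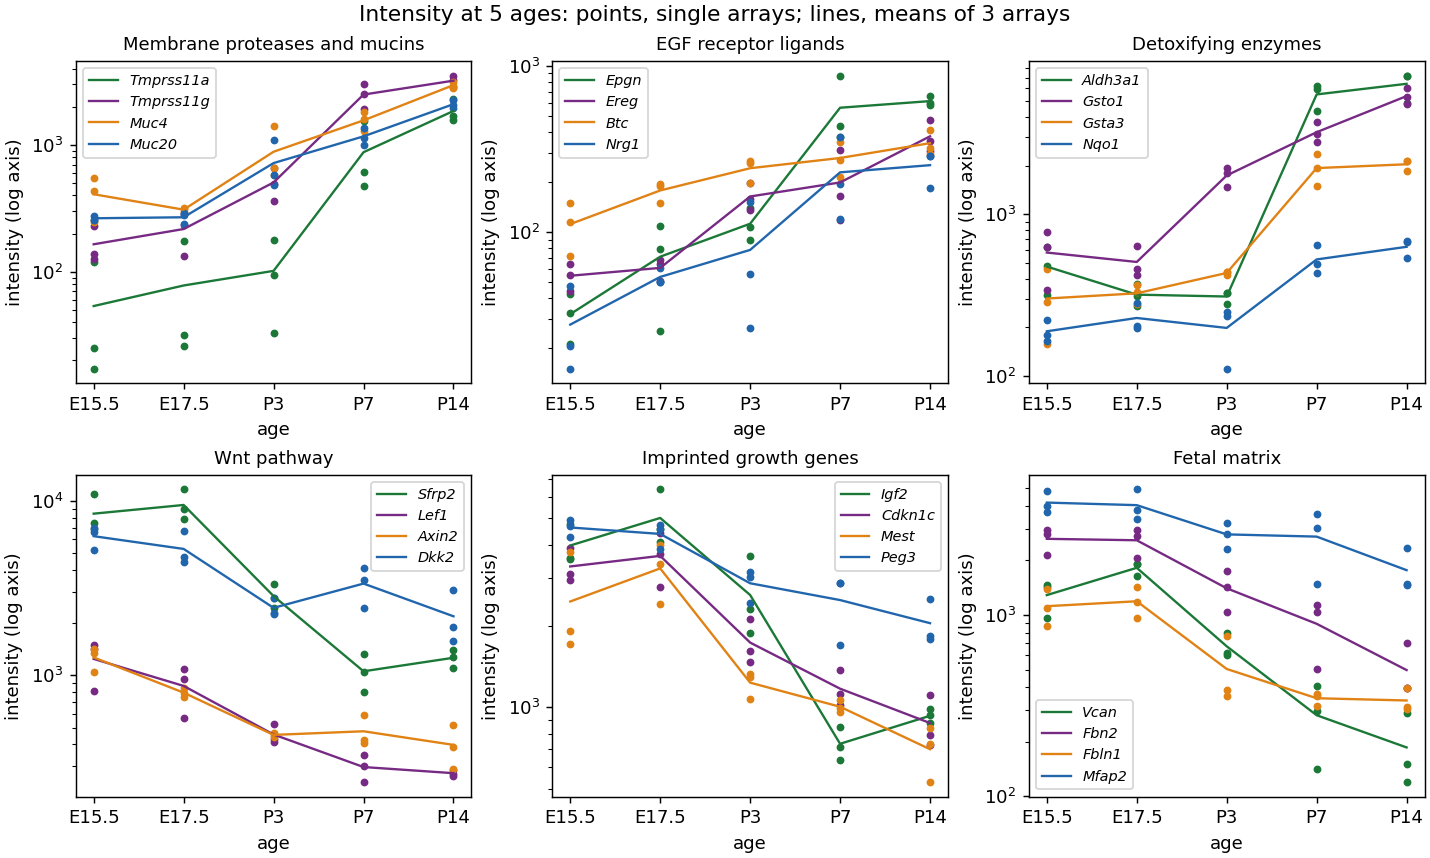
Intensity on a log axis at E15.5, E17.5, P3, P7 and P14 for 4 genes in each of 6 groups; points are single arrays and lines join the means of 3 arrays. The upper row holds groups with rising genes, in which Aldh3a1 and Tmprss11a climb between P3 and P7, and the lower row groups with falling genes, most of which drop between E17.5 and P3.

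The changing genes were also read on the 2 arrays of isolated layers, again with no test. The epithelium array is the older of the 2. A gene that rises with age could therefore read higher on it whatever its layer, and a falling gene lower. They hold 1 array of P28 epithelium, lifted with dispase, and 1 of P7 stroma, cut out by laser, so layer, age and isolation cannot be told apart, and both have a higher floor than the whole-cornea arrays. The median log2 difference of epithelium minus stroma was 0.56 for rising genes, -0.57 for falling genes and -0.00 for all genes. Epithelium was at least 4-fold over stroma for 38 rising genes (9.1%) and no falling gene, where all genes gave 63 of 12998, or 0.485%. It was at least 4-fold under stroma for 3 rising genes (0.7%) and 17 falling genes (6.6%), where all genes gave 118, or 0.908%. Lypd2, Tmprss11a and Krt6b lay on the epithelial side with 4.06, 3.77 and 3.75. Bex1, Meg3 and Peg3 lay on the stromal side with -3.38, -3.16 and -3.15. Among risers on the stromal side were S100a3 with -3.01 and Rgs5 with -1.96. The keratinocyte genes Ivl and Krt17, which rose, and Krtdap, which fell, also read higher on the stroma array (-1.81, -1.22 and -2.69). A higher reading on that array is thus not proof of stromal origin, and epithelial RNA on it was not tested.

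**Figure D5:**
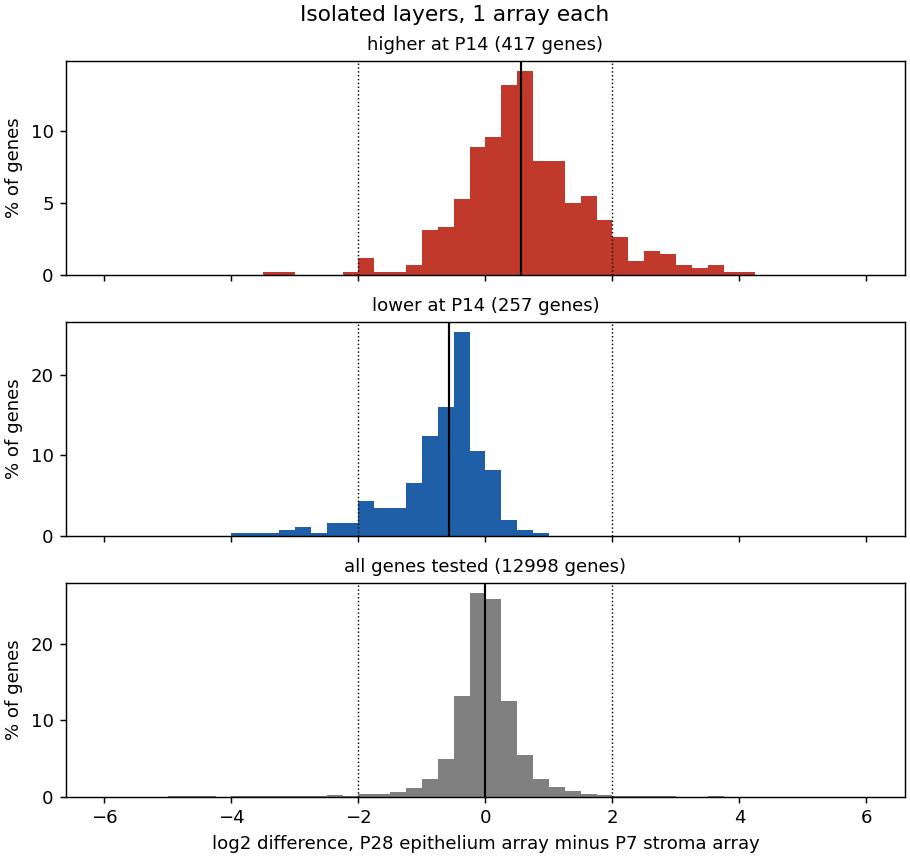
Share of genes, in percent, by log2 difference of the P28 epithelium array minus the P7 stroma array, for the 417 genes higher at P14 (top), the 257 lower at P14 (middle) and all 12998 genes tested (bottom). Solid lines mark medians, at 0.56, -0.57 and -0.00, and dotted lines a 4-fold difference.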

How the data were processed

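Whole corneas were profiled on Affymetrix arrays after amplification of total RNA, per the labels' protocols. The authors deposited linear intensities, 1 for each probe set on an array. The submitters' processing notes name PLIER and version 1.1 of Affymetrix Expression Console; any further normalization between arrays is not given in the sources used here. Of 35557 probe sets, 21789 had 1 gene symbol, 1621 several and 12147 none, and 21698 matched the RefSeq gene table by Entrez ID. Probe sets with 1 symbol that lay above the array's median on at least 2 of 32 whole-cornea arrays numbered 14329, and the one with the highest mean per gene gave 12998 genes. Intensities were taken to log2(value + 16) and all 32 whole-cornea arrays, with 1 mean per age, were fitted together with limma 3.58.1 in R 4.3.3, with Benjamini-Hochberg adjustment over all genes. The genes named are the 15 largest rises and falls that were called, did not overlap and were called without P14 replicate 2, and members of 49 gene lists. Members and lists were chosen with earlier results of these data known. The fit was checked on simulated data. Alternatives covered the filter, offset, scaling, probe set choice, arrays fitted, array weights, replicate block and left-out arrays. Arrays of other ages entered the shared estimate of the spread and the course in time, and the 2 layer arrays entered only the layer difference.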

Additional observations from a re-analysis of the deposited data

How the results depend on the processing

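The 674 calls (417 higher, 257 lower at P14) became 2454 by adjusted p alone, 969 higher and 1485 lower, and 155 at a log2 difference of at least 2, 120 higher and 35 lower. Leaving out each array in turn gave 589 to 681 calls, with 369 to 430 higher and 194 to 305 lower. Median scaling gave 466 higher and 223 lower, so that 67.6% of calls were higher against 61.9%, with a shift of the median of all genes by 0.063. The other planned choices gave 546 to 783 calls. With P14 replicates 2 and 3 left out, chosen after seeing the data, 582 genes were called, 408 higher and 174 lower, 444 of them among the 674. By adjusted p alone the split of calls thus turned, with 39.5% higher. No named gene changed sign under the settings run. Of the 151 named genes 87 were called under all 21 settings that kept the call thresholds, which leaves out adjusted p alone and the log2 difference of at least 2. With P14 replicate 2 and E15.5 replicate 1 left out, 123 were called. Cldn7, Col14a1, Elovl7, Lgals3, Mfap2, Mmp16, Peg3, Sag and Sox11 were lost there (adjusted p between 0.0573 and 0.0998), though no single left-out array lost them. With P14 replicates 2 and 3 left out, Grb10, Mdk, Mfap2, Peg3 and Sox11 gave -0.73, -0.88, -0.81, -0.88 and -0.74, under the fold threshold. The replicate block, fitted on the 6 arrays alone, gave 710 calls, 442 higher and 268 lower, with 669 of the 674 among them. The same 6 arrays without a block gave 672 calls, 418 higher and 254 lower. Deviations from the age means correlated at -0.082, 0.101 and -0.203 for same-numbered arrays, and between -0.248 and 0.304 for the others. With 3 arrays an age these values cannot decide whether the numbers pair the arrays, and the labels do not say. Dim genes are limited by the offset and by signal near the floor.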
